A study of Danio rerio with 6 samples.

Results

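Genes of fibroblast growth factor (FGF) receptors, of the feedback inhibitors that FGF signalling switches on, and of the PEA3 group of ETS transcription factors were followed in zebrafish tumours. Members were the probe sets whose platform gene symbol is on a list of 10 genes, and 9 of these genes were found, with 12 of the 15502 tested probe sets. The genes are etv4 and etv5b, spry2 and spry4, dusp6 and il17rd, and fgfr1a, fgfr3 and fgfr4, whereas spry1 was not analysed here. The list was chosen with earlier differences between the tumour groups on these same arrays in view. The values of these genes in that comparison are therefore a description and carry no test.

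Small round blue cell tumours (SRBCT, 3 arrays) came from fish with the genotype Tg(HSP:EWS-FLI1) on a p53 M214K homozygous background. In them a heat shock promoter drives the human fusion of EWS with the ETS factor FLI1, and the transposon was injected into embryos, so that insertions are somatic. Malignant peripheral nerve sheath tumours (MPNST, 3 arrays) came from fish that were homozygous for the same p53 M214K mutation and carried no transgene. The p53 mutation is thus common to both groups. Each array holds the RNA of 1 whole tumour, and the age and sex of the fish and any heat shock are not given in the sources used here.

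FGF ligands bind receptor tyrosine kinases at the cell surface, which pass the signal through Ras to the kinase ERK. ERK signalling raises the transcription of the PEA3 group factors, which carry out part of the response, and of inhibitors that damp it: Sprouty proteins act between receptor and ERK, Dusp6 removes phosphate from ERK, and Il17rd, also called Sef, acts at the membrane. In zebrafish embryos etv4, etv5b, spry4, dusp6 and il17rd are well-known readouts of FGF activity in the brain, the fin buds and other signalling centres. In human Ewing sarcoma the PEA3 group gene ETV4 is itself a rare fusion partner of EWSR1.

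All values are log2 expression values as normalized by the authors, 1 per probe set and array, and differences are SRBCT minus MPNST with the standard error (SE) of a limma fit over all probe sets. A value of 1 is thus a doubling. Dim values can be drawn together by the processing, so that differences of dim genes can be understated, which was not measured here. Differences of dim probe sets also leaned upward, with 72.1% above 0 in the lowest quartile of levels. The arrays correlated at 0.938 to 0.968 within MPNST and at 0.939 between SRBCT 1 and SRBCT 2, but SRBCT 3 correlated at 0.892 and 0.864 with those and at up to 0.916 with MPNST arrays. Differences of named genes that moved by over 1.5 times without SRBCT 3 are also given without it, apart from those of junba, fosl2 and the cell type markers. As a sign of RNA integrity, the GAPDH control's 3' signal exceeded its 5' signal by 0.41 to 0.84 in SRBCT and by 1.04 to 1.1 in MPNST. The acta1 control ran the other way, with a 3' minus 5' signal of 1.28, 1.14 and -0.21 in SRBCT and of -1.0, -0.66 and -0.89 in MPNST. The part of RNA integrity in the results was not tested. The tumours are bulk tissue, in which fewer cells of a type and less RNA per cell cannot be told apart.

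Both PEA3 group factors were high in SRBCT and lower in MPNST. The probe set of etv4 was at 10.53, 11.74 and 10.14 in SRBCT 1 to 3, against 7.86, 8.64 and 8.21 in MPNST 1 to 3. Every SRBCT array lay above every MPNST array, with 1.5 log2 units between the lowest SRBCT and the highest MPNST value. The mean was 10.80 ± 0.83 in SRBCT and 8.24 ± 0.39 in MPNST (SD, n = 3 each), a difference of 2.57 (SE 0.46) or 5.92-fold. The mean of etv4 over the 6 arrays exceeded that of 95.6% of the tested probe sets.

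The second factor, etv5b, was at 10.08, 9.81 and 9.60 in SRBCT and at 6.28, 8.03 and 7.08 in MPNST. The groups did not overlap, and the gap between them was 1.57. Its SRBCT values were the closest to each other among the genes described, with a range of 0.48, while its MPNST values spread over 1.75. The difference was 2.70 (SE 0.45), or 6.50-fold, between means of 9.83 ± 0.24 in SRBCT and 7.13 ± 0.88 in MPNST. By size of difference etv5b ranked 68 and etv4 ranked 73 from the top among 8793 genes.

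The close relative etv5a, which belongs to the same PEA3 group, overlapped between the groups. Its brighter probe set was at 6.63, 6.35 and 8.24 in SRBCT and at 7.72, 7.43 and 6.97 in MPNST, with SRBCT 3 the highest of all. The difference was -0.30 (SE 0.53, limma adjusted p 0.797). It was -0.88 without SRBCT 3 and 0.06 without SRBCT 2, and whether it differs from that of etv5b was not tested. The remaining PEA3 group gene etv1 and the Capicua genes, whose product represses PEA3 genes, were not analysed here.

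**Figure D1:**
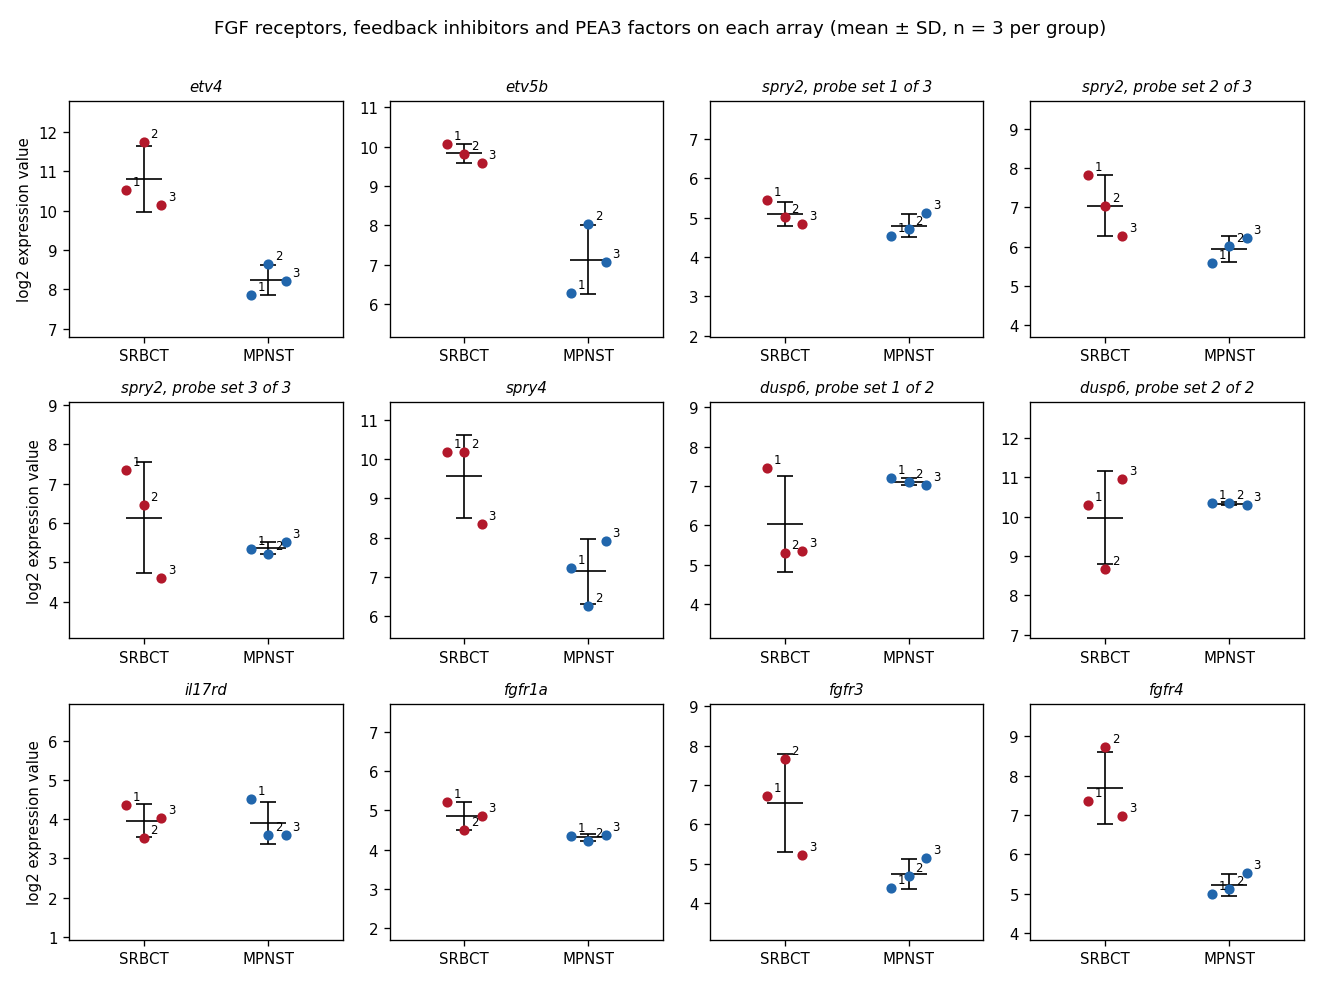
Each panel plots 1 probe set on the 6 arrays as log2 expression values, with SRBCT left of MPNST, the array number beside each point, and bars for the mean and SD (n = 3). All panels span 6 log2 units. etv4, etv5b and fgfr4 show a wide gap between the groups, spry4 a smaller one, and both dusp6 probe sets overlap.

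Of the Sprouty genes, spry4 differed between the groups in the direction of the PEA3 factors and by nearly as much. Its deviations from the group means correlated at 0.33 with etv4 and -0.20 with etv5b, while those of etv4 and etv5b correlated at 0.45. These values over 6 arrays were not tested. The values of spry4 were 10.17, 10.18 and 8.34 in SRBCT, against 7.23, 6.27 and 7.93 in MPNST. SRBCT 1 and 2 were nearly equal and SRBCT 3 was lower, only 0.41 above the highest MPNST array. The difference was 2.42 (SE 0.65), or 5.35-fold, between means of 9.56 ± 1.06 and 7.14 ± 0.83 for SRBCT and MPNST. Without SRBCT 3 it was 3.03.

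spry2, a second Sprouty gene, was read by 3 probe sets that agreed in direction but not in size. Its brightest probe set was at 7.83, 7.03 and 6.27 in SRBCT and at 5.58, 6.02 and 6.23 in MPNST. The groups did not overlap, but the lowest SRBCT value exceeded the highest MPNST value by only 0.04. The difference of this probe set was 1.1 (SE 0.42), and the other probe sets differed by 0.78 (SE 0.67) and 0.31 (SE 0.25) with overlapping groups. The first of these differed by 1.55 without SRBCT 3. All 3 probe sets were highest on SRBCT 1, and they correlated at 0.766 to 0.905 over the 6 arrays. Leaving out SRBCT 1 lowered the difference of the brightest probe set to 0.71. It lowered that of 0.78 to 0.175 and that of 0.31 to 0.145.

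The feedback phosphatase dusp6 overlapped between the groups. Its brighter probe set was at 10.31, 8.67 and 10.95 in SRBCT, against 10.36, 10.36 and 10.29 in MPNST. The MPNST values lay within 0.07 of each other, and the SRBCT values lay on both sides of them. The difference was -0.36 (SE 0.57), and it became 0.29 without SRBCT 2 and -0.85 without SRBCT 3. The dimmer probe set of dusp6 was at 7.45, 5.30 and 5.35 in SRBCT and at 7.20, 7.10 and 7.03 in MPNST. Here SRBCT 2 and 3 were low and SRBCT 1 was not, which gave a difference of -1.08 (SE 0.59), or -1.79 without SRBCT 1. The 2 probe sets disagreed on SRBCT 3, which was the highest array for one and among the lowest for the other, so that the level of dusp6 in that tumour is uncertain. They correlated at 0.36 over the 6 arrays.

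il17rd, the membrane inhibitor, was dim on every array. It was at 4.35, 3.51 and 4.03 in SRBCT, against 4.51, 3.59 and 3.59 in MPNST. The groups overlapped, and the difference was 0.07 (SE 0.35), or 0.03 without SRBCT 3. Its mean level exceeded that of 22.6% of the tested probe sets, where little change can be seen on this array. Thus of the 4 measured feedback inhibitors spry4 was higher on all SRBCT arrays, and dusp6 and il17rd were not. spry2 was so, by a narrow margin, only on its brightest probe set and not on its other probe sets.

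The receptor fgfr4 was high in SRBCT. It was at 7.36, 8.73 and 6.98 in SRBCT, against 4.99, 5.13 and 5.53 in MPNST. The MPNST arrays were all low and close together, and the gap to the lowest SRBCT array was 1.45. The difference was 2.47 (SE 0.47), or 5.55-fold, between means of 7.69 ± 0.92 in SRBCT and 5.22 ± 0.28 in MPNST. fgfr4 is known in mammals for its expression in muscle precursors, liver and some sarcomas.

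fgfr3, a receptor known from cartilage and from glial progenitors, differed in the same direction but mainly in SRBCT 1 and 2. It was at 6.73, 7.67 and 5.21 in SRBCT and at 4.39, 4.68 and 5.14 in MPNST. SRBCT 3 was only 0.07 above the highest MPNST array. The difference was 1.80 (SE 0.62) over all arrays, 2.46 without SRBCT 3 and 1.23 without SRBCT 2.

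fgfr1a, the receptor that is widely expressed in mesenchyme, was dim. It was at 5.22, 4.50 and 4.86 in SRBCT, against 4.36, 4.21 and 4.37 in MPNST. The groups were apart by 0.13, and the difference was 0.55 (SE 0.23). Probe sets of similar level also leaned upward: in the quartile of levels between 4.07 and 5.57, the median difference was 0.16 and 16% of probe sets were separated with SRBCT higher. A further receptor gene, fgfr2, was read by a brighter and a dimmer probe set, both with overlapping groups, whereas fgfr1b was not analysed here. The brighter fgfr2 probe set was at 4.68, 4.37 and 4.93 in SRBCT and at 4.13, 4.38 and 4.20 in MPNST. Its difference was 0.42 (SE 0.21, limma adjusted p 0.408). The dimmer differed by -0.14 (SE 0.35, limma adjusted p 0.861), or by -0.02 without SRBCT 3.

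Counted together, 7 of the 9 genes (7 of 12 probe sets) had all SRBCT arrays above all MPNST arrays and none had the reverse. Over all tested probe sets, 13.2% were separated with SRBCT higher and 9.34% with SRBCT lower. The median difference was 1.80 over the 9 genes and 0.07 over 8793 genes, and 8 of the 9 were above 0, as were 55.9% of all genes. In the limma fit with Benjamini-Hochberg adjustment 0 of the 12 probe sets had an adjusted p under 0.05, and 6 had an unadjusted p under 0.05. Over all 15502 probe sets these shares were 0.903% and 15.2%. The share with an adjusted p under 0.05 was made up of 0.0903% that were higher and 0.813% that were lower in SRBCT. Without SRBCT 3 the adjusted count was 6 of 12, all higher (etv4, etv5b, spry2, spry4, fgfr3 and fgfr4), when 3.67% of all probe sets passed as higher. Among probe sets at or above the median level it was 3 of 9, also all higher (etv4, etv5b and fgfr4), when 0.4% passed as higher. Nothing is read from these shares, because the same comparison was in view when the genes were listed.

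**Figure D2:**
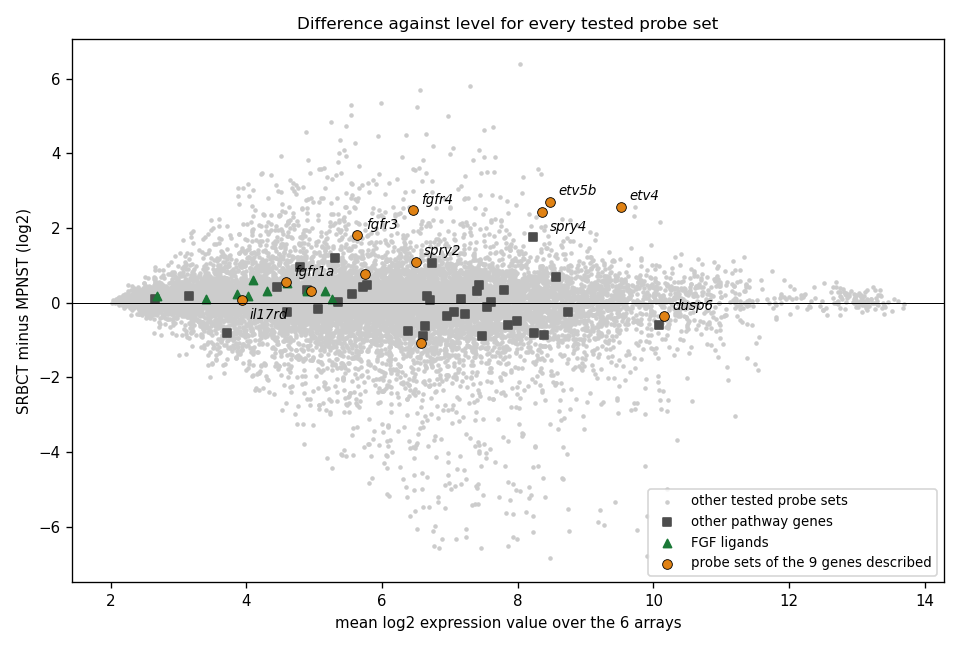
Every tested probe set is plotted by its mean log2 value over the 6 arrays (x axis) and its SRBCT minus MPNST difference (y axis). Orange circles are the probe sets of the 9 genes described, green triangles FGF ligands, dark squares other pathway genes and light grey points all others. etv4, etv5b, spry4 and fgfr4 lie at differences of 2.42 to 2.70 and at middle to high levels, while the ligands lie in the dim range near 0.

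SRBCT 3 was the lowest SRBCT array for 6 of the 9 genes (etv4, etv5b, spry2, spry4, fgfr3 and fgfr4), and it was the highest for the brighter dusp6 probe set (10.95). On the dimmer dusp6 probe set it was at 5.35, below every MPNST array, and SRBCT 1 was the highest at 7.45. SRBCT 2 was the highest for etv4, spry4, fgfr3 and fgfr4 and the lowest for both dusp6 probe sets, il17rd and fgfr1a. Within MPNST the array number 1 was the lowest for 5 genes (etv4, etv5b, spry2, fgfr3 and fgfr4), and number 3 was the highest for spry2, spry4, fgfr1a, fgfr3 and fgfr4. The shares of all probe sets that were lowest or highest on each array were not counted, so nothing is read from these orders.

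As deviations from the group means over 6 arrays, fgfr3 and fgfr4 correlated at 0.91, etv4 and fgfr4 at 0.89, and etv4 and fgfr3 at 0.83. The brighter dusp6 probe set correlated at -0.96 with fgfr4 and at -0.90 with etv4 and fgfr3. The dimmer one correlated at only -0.33 with fgfr4, -0.29 with etv4 and 0.09 with fgfr3, so that no common pattern of dusp6 with these genes can be given. etv5b correlated with fgfr4 at only 0.09 on this scale, although the values themselves, which hold the group difference, correlated at 0.86. These correlations describe 6 arrays and carry no test.

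Leaving out single arrays moved the sizes but not the sign for most of the genes. Without 1 array at a time, etv4 stayed between 2.1 and 2.90, etv5b between 2.28 and 3.15, fgfr4 between 1.95 and 2.83, spry4 between 1.98 and 3.03 and fgfr3 between 1.23 and 2.46. The brightest spry2 probe set stayed between 0.71 and 1.49 and fgfr1a between 0.37 and 0.73. Without SRBCT 3 the differences were 2.90 for etv4, 2.82 for etv5b and 2.83 for fgfr4. The brighter dusp6 probe set ranged from -0.85 to 0.29 and il17rd from -0.13 to 0.37, so that neither had a settled sign. The dimmer dusp6 probe set stayed below 0, between -1.79 and -0.71.

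**Figure D3:**
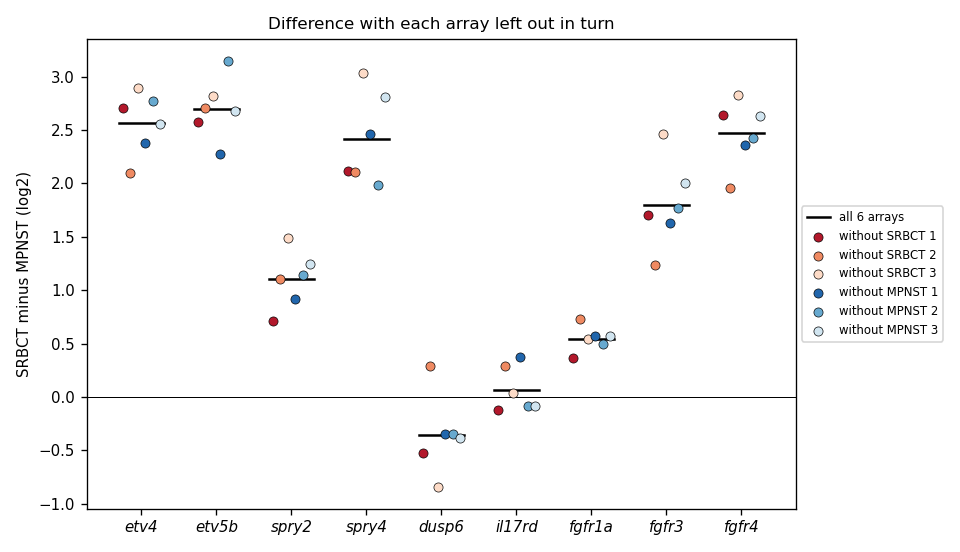
For each gene (x axis) the black line is the SRBCT minus MPNST difference in log2 units (y axis) over all 6 arrays, and each coloured point is the difference with 1 array left out. Each gene is read by its brightest probe set. The points of etv4, etv5b, spry4 and fgfr4 all lie above 1.95, whereas those of dusp6 and il17rd fall on both sides of 0.

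Genes with profiles most like those of the PEA3 factors were sought among 1731 genes that varied by at least 2 log2 units over the 6 arrays. Genes with clone-type names that hold a colon, or with names that start with LOC or zgc, were left out of these 1731. The profile closest to etv4 was that of magi1a, a scaffold protein gene of cell junctions, with a Pearson correlation of 0.997 over 6 arrays and values of 7.14, 7.88 and 6.79 in SRBCT and 4.87, 5.43 and 5.05 in MPNST. fgfr4 came next at 0.982, followed by rab11bb, of the Rab11 family of recycling endosome proteins, at 0.981, the transcriptional corepressor gene ctbp1 at 0.979 and olfm2a, of the olfactomedin family, at 0.979. For etv5b the closest were picalmb, a clathrin assembly gene, at 0.996, stox2a at 0.992, gpm6aa, a neuronal membrane glycoprotein gene, at 0.985, the G protein subunit gene gng7 at 0.960 and again magi1a at 0.941. etv4 and etv5b correlated at 0.923 with each other, which ranked 43 for etv4 and 9 for etv5b. These are likenesses over 6 arrays in 2 groups, and any gene split between the groups scores high.

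The AP-1 gene junbb, which growth factor signalling also induces, was at 11.30, 10.69 and 11.05 in SRBCT, against 8.12, 7.87 and 9.37 in MPNST. It had a gap of 1.32 between the groups and a difference of 2.56 (SE 0.43, limma adjusted p 0.0712), which did not pass. Other AP-1 genes did not differ alike. junba differed by 0.80 (SE 0.49, limma adjusted p 0.477). Probe sets of fosl2 differed by -0.06, -0.22 and -1.06 (limma adjusted p 0.963, 0.837 and 0.388). Nothing about AP-1 genes as a group is read from junbb.

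The other genes of the pathway did not pass the test. Of 104 listed genes in the roles of ligands, further receptors, the Ras to ERK cascade, further inhibitors, other PEA3 group factors with Capicua, and ERK-induced genes, 47 were measured, and 0 rose and 0 fell in the limma fit with Benjamini-Hochberg adjustment over all probe sets, where 0.903% of probe sets passed. At an unadjusted p under 0.05 there was 1, gab1, against 15.2% of all probe sets. The median difference of the 47 was 0.11, and 4 were separated with SRBCT higher and 1 with SRBCT lower. Over all tested probe sets these shares were 13.2% and 9.34%, so no lean is read from the 4 and 1. Without SRBCT 3, 2 of the 47 fell: rasa1a, a Ras GTPase activating protein gene (-1.45, SE 0.22, adjusted p 0.0214, against -0.76 over all arrays), and mcl1b, of the Mcl1 survival factors (-1.49, SE 0.26, adjusted p 0.0309). In that fit 3.68% of all probe sets fell.

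FGF ligands were dim in both tumour types. All 10 measured ligands of 32 listed lay below the median level of the array, and their differences were between 0.10 and 0.62, with a median of 0.28. Probe sets in the same dim range leaned the same way, since 72.1% of those in the lowest quartile and 63.4% of those in the next had a difference above 0. fgf8a, the ligand of the midbrain-hindbrain boundary, was at 4.18, 3.81 and 3.95 in SRBCT, against 3.82, 3.72 and 3.68 in MPNST, with a difference of 0.24 (SE 0.18, limma adjusted p 0.554). fgf13a, an intracellular FGF homologous factor, differed by 0.62 (SE 0.34, limma adjusted p 0.436), fgf10a by 0.54 (SE 0.29, limma adjusted p 0.424) and fgf3 by 0.32 (SE 0.17, limma adjusted p 0.424). Without SRBCT 3 the difference of fgf13a was 0.97 and that of fgf10a 0.27. Of these fgf3 was the only ligand whose groups did not overlap.

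Further receptor genes, besides fgfr2, were dim as well. fgfrl1a, which encodes a receptor without a kinase domain, was at 3.18, 3.03 and 3.75 in SRBCT, against 3.80, 5.01 and 3.55 in MPNST, and differed by -0.80 (SE 0.43, limma adjusted p 0.429), or by -0.36 without MPNST 2. fgfbp2a, of the FGF binding proteins, differed by 0.17 (SE 0.19, limma adjusted p 0.675).

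In the cascade, 14 genes were measured and their median difference was -0.11, with 7 above 0 and 7 below. gab1, a docking protein that links receptors to Ras and PI3 kinase, was at 6.13, 5.98 and 6.34 in SRBCT and at 6.97, 6.86 and 7.30 in MPNST. It was the 1 cascade gene whose groups were apart, and its difference of -0.89 (SE 0.21, limma adjusted p 0.155) did not pass. The Shp2 phosphatase gene ptpn11b differed by 0.34 (SE 0.25, limma adjusted p 0.541) and the MEK gene map2k1 by -0.34 (SE 0.29, limma adjusted p 0.581).

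Among the 10 measured further inhibitors the median difference was 0.10. cblb, a ubiquitin ligase gene that acts on receptor kinases, was at 6.87, 6.54 and 8.37 in SRBCT, against 6.10, 6.04 and 6.45 in MPNST, and differed by 1.06 (SE 0.49, limma adjusted p 0.371). Without SRBCT 3, its highest array, the difference was 0.51. dusp7, a close relative of dusp6 among ERK phosphatases, was read by a brighter and a dimmer probe set. The brighter was at 7.52, 8.01 and 7.47 in SRBCT and at 7.09, 7.20 and 7.31 in MPNST. It differed by 0.47 (SE 0.22, limma adjusted p 0.375) with groups apart. The dimmer differed by 0.67 (SE 0.30, limma adjusted p 0.351) with overlapping groups. spred1, of the Sprouty-related proteins, differed by 0.69 (SE 0.44, limma adjusted p 0.490), or by 0.26 without MPNST 1, and its groups overlapped.

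Of 8 measured ERK-induced genes 4 were above 0 and 4 below. ier5l, an immediate early response gene, was at 9.03, 10.33 and 7.93 in SRBCT, against 7.60, 6.21 and 8.21 in MPNST, and differed by 1.76 (SE 0.75, limma adjusted p 0.340) with overlap, or by 1.14 without SRBCT 2. The zinc finger gene egr2a differed by 0.94 (SE 0.56, limma adjusted p 0.462), but by 0.29 without SRBCT 3. Over all arrays mcl1b differed by -0.87 (SE 0.54, limma adjusted p 0.481), and without SRBCT 3 by -1.49. egr1, a common readout of ERK, was read by a brighter and a dimmer probe set. The brighter was at 6.62, 3.52 and 7.93 in SRBCT and at 5.79, 4.27 and 6.56 in MPNST. It thus varied more within the groups than between them. Its difference was 0.48 over all arrays and -0.47 without SRBCT 3. The dimmer egr1 probe set did not change sign, with 0.55 over all arrays and 0.445 without SRBCT 3.

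**Figure D4:**
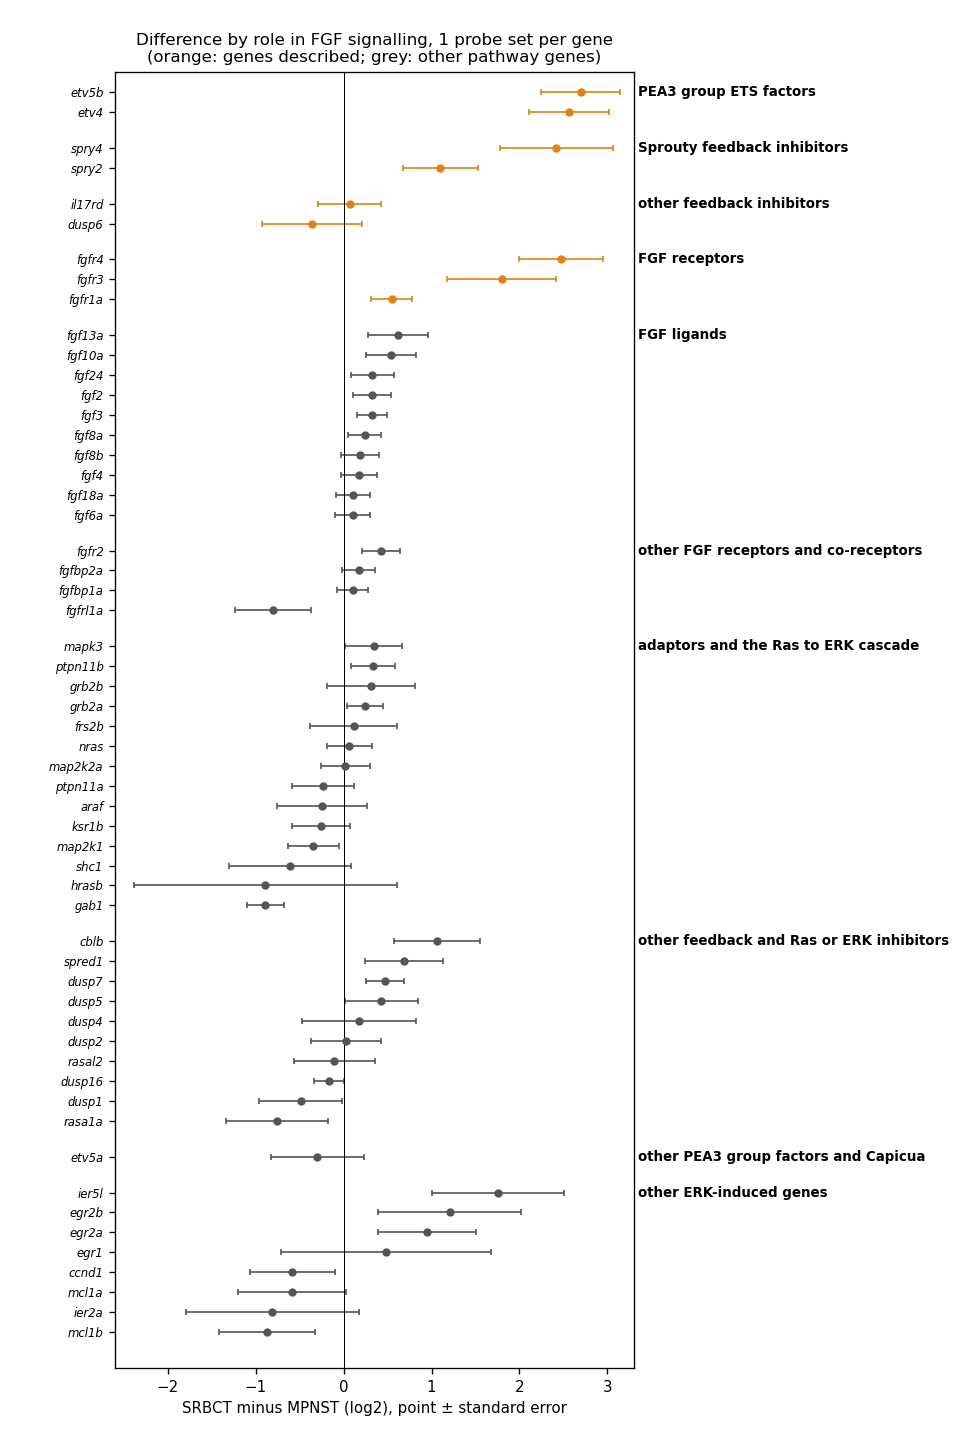
Each row is 1 gene, grouped by role, and the point and bar give its SRBCT minus MPNST difference in log2 units with the standard error. The genes described are orange and the other pathway genes grey. etv5b, etv4, fgfr4 and spry4 lie beyond 2.4, and no ligand exceeds 0.62.

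Markers of other cell types also differed between the arrays, and levels are given here as the log2 of the summed linear signals of each list. Radial glia and brain markers (7 of 9 listed were measured, 3 separated higher) summed to 9.77 to 13.74 in SRBCT, with SRBCT 3 the lowest, and to 8.21 to 8.96 in MPNST. fabp7a, a radial glia gene, was at 11.64, 12.28 and 6.67 in SRBCT, against 3.60, 3.68 and 5.88 in MPNST. The progenitor gene olig2 was at 10.38, 11.03 and 3.15 in SRBCT, against 2.60, 2.88 and 3.19 in MPNST. Neuron markers (10 of 11 measured, 5 separated higher) summed to 9.32 to 11.28 in SRBCT and to 8.97 to 9.86 in MPNST.

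On SRBCT 3 the radial glia and brain list was lower than on SRBCT 1 and 2, but its sum of 9.77 was above the highest MPNST sum of 8.96. There fabp7a (6.67), slc1a2b (4.76) and glula (9.19) were above every MPNST array. The highest MPNST values were 5.88, 3.96 and 8.38 in the same order. In contrast olig2 (3.15), sox3 (3.13), sox2 (7.05) and gfap (3.2) were not above every MPNST array. The brightest gene of the list on SRBCT 3 was glula, which thus weighed most in its sum. On the same array etv4, etv5b and fgfr4 were 1.5, 1.57 and 1.45 above the highest MPNST array, and spry4, fgfr3 and spry2 were 0.41, 0.07 and 0.04 above it. The value for spry2 is that of its brightest probe set. On its other probe sets SRBCT 3 was not above every MPNST array. The part of the glial and neuronal transcripts in the differences was not tested on any of the SRBCT arrays.

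Schwann cell and neural crest markers (7 of 11 measured, 1 separated higher and 2 lower) summed to 11.32 to 11.93 in SRBCT and to 12.02 to 12.09 in MPNST. The neural crest and Schwann cell regulator sox10 was at 10.34, 10.64 and 11.01 in SRBCT and at 10.75, 10.45 and 10.73 in MPNST. The separated genes of this list went both ways. pmp22b and foxd3 were lower in SRBCT, with differences of -4.26 and -2.89, and cldnk was higher, with 3.89. Their limma adjusted p values of 0.112, 0.293 and 0.0575 did not pass. Oocyte markers (13 of 15 measured, 12 separated lower) summed to 7.97 to 8.94 in SRBCT and to 12.84 to 14.41 in MPNST, with MPNST 1 the highest. MPNST 1 was also the MPNST array with the lowest values for 5 of the 9 genes. The share of all probe sets that were lowest of MPNST there was not counted, so nothing is read from the 5. Without MPNST 1 the differences were 2.38 for etv4, 2.28 for etv5b, 0.92 for spry2, 1.63 for fgfr3 and 2.36 for fgfr4. All 3 MPNST arrays held high oocyte sums, so leaving out MPNST 1 does not bear on the part of oocyte transcripts, which was not tested.

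Liver markers (10 of 13 measured, 0 separated) reached 14.35 on MPNST 1, against 8.90 to 10.12 on the other MPNST arrays, and 7.76 to 8.96 in SRBCT. Intestine and pancreas markers (12 of 17 measured, 2 separated higher) summed to 8.61 to 13.91 in SRBCT, with SRBCT 3 the highest, and to 8.54 to 10.71 in MPNST. Leukocyte markers (9 of 11, 3 separated lower) summed to 9.25 to 10.79 in SRBCT and 10.27 to 11.93 in MPNST, and erythroid markers (5 of 7, 3 separated lower) to 9.57 to 10.88 and 10.99 to 12.44 in SRBCT and MPNST. Skeletal muscle markers (8 of 10, 3 separated higher) summed to 8.06 to 9.21 in SRBCT and 7.74 to 7.90 in MPNST, and epithelial markers (8 of 8, 1 separated higher and 2 lower) to 10.76 to 13.44 and 13.26 to 13.54 in SRBCT and MPNST. Endothelial markers (3 of 7, 1 separated higher and 1 lower) summed to 6.52 to 6.77 in SRBCT and 6.71 to 7.64 in MPNST. The values of this normalization do not reach 0, so no marker can be called absent, and the part of these tissues in the results was not tested.

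**Figure D5:**
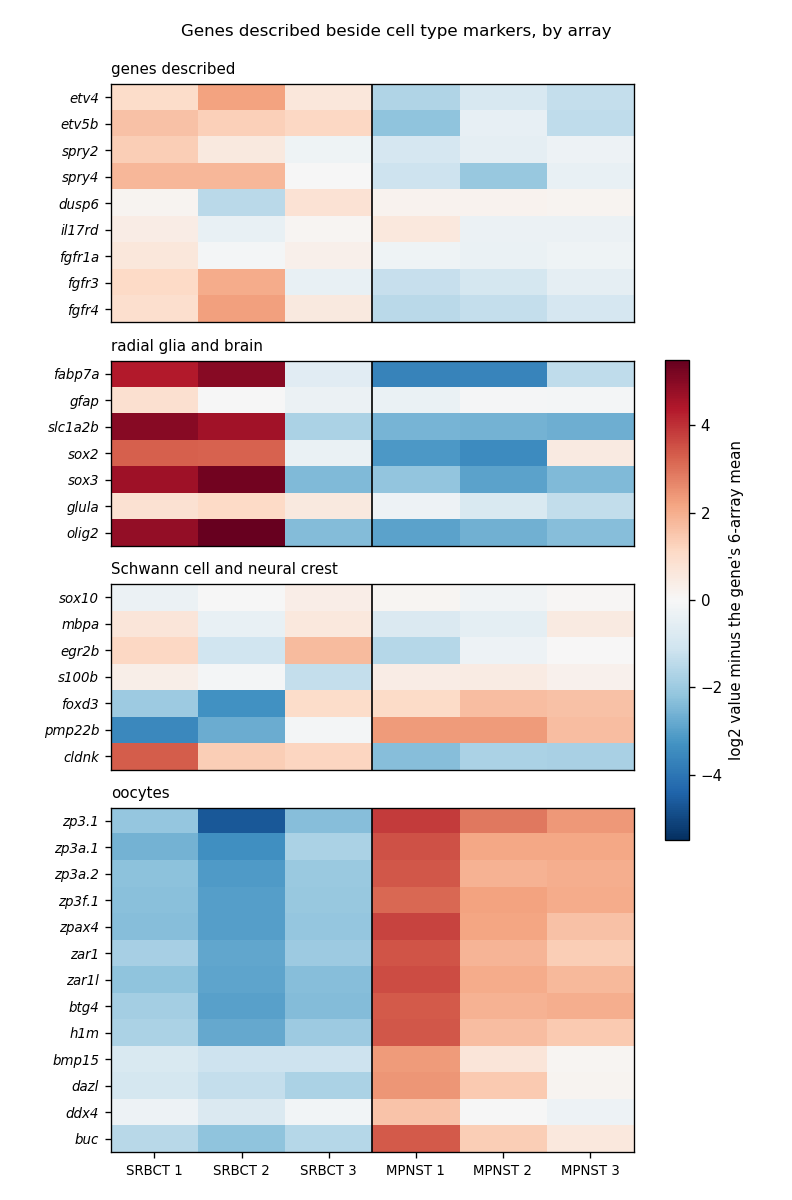
Colour gives each gene's log2 value minus its mean over the 6 arrays, with SRBCT arrays left of the black line and MPNST arrays right of it. etv4, etv5b and fgfr4 are above their mean on all 3 SRBCT arrays. Of the radial glia and brain list, fabp7a, slc1a2b, sox3 and olig2 are high on SRBCT 1 and 2, whereas gfap differed by only 0.36 with overlapping groups. The oocyte genes are high on the MPNST arrays.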

How the data were processed

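Tumour RNA of 6 fish was profiled on Affymetrix zebrafish arrays; per the labels' protocols 2.5 micrograms of total RNA per tumour were reverse-transcribed with an oligo(dT) primer, and biotinylated cRNA was made by in vitro amplification. The deposited values are log2 expression values of probe sets (groups of short probes that read 1 transcript together), made by the authors with RMA in the affy package and R 2.2.0, per the submitters' processing notes. RMA corrects background, quantile-normalizes and summarizes probes. That the base is 2 rests on RMA's usual output and on values of 1.86 to 13.88. Scanner files were not analysed here, and filters are not given in the sources used here.

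Of 15617 probe sets 115 controls were left out and 15502 tested. Symbols came from the 2016 platform annotation, updated through Entrez identifiers (1 updated, 84 not found); 10795 probe sets had 1 symbol, 135 several and 4572 none. The brightest probe set stood for a gene. SRBCT and MPNST were contrasted by limma 3.58.1 under R 4.3.3 (linear model with moderated variance, no covariates, Benjamini-Hochberg adjusted p under 0.05). The fit was tested on simulated data with the spread of each probe set. It recovered 10%, 58%, 64% and 82% of changes of 1, 2, 3 and 4 log2 units (50 probe sets each), with 3 false calls. A count of 0 past the threshold is thus no sign that changes of 1 log2 unit are lacking, and single changes of 2 to 4 units can also be missed. The labels name no batch. The number of arrays limits the precision. Members, lists and tests were chosen with earlier results of these data known. Named are all members, the 3 pathway genes with the smallest p in each list, the 5 profiles closest to etv4 and etv5b, and junbb. The genes fgf8a, egr1, rasa1a, junba and fosl2 and the marker genes were named after their values were seen.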

Additional observations from a re-analysis of the deposited data

How the results depend on the processing

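The 9 differences were recomputed under 12 alternatives (cyclic loess, centring on array medians, repeated quantile normalization, averaging a gene's probe sets, dropping dim probe sets, the replicate block, and dropping each array), which gave 106 values. Of these 0 moved by more than 1 SD between replicates. Leaving out 1 of 3 arrays cannot pass that limit. The replicate block and dropping dim probe sets return the same differences by construction, as does averaging for genes with 1 probe set. No stability is therefore read from this count. The genes etv4, etv5b, spry2, spry4, fgfr1a, fgfr3 and fgfr4 kept their sign in all they entered. dusp6 kept it in 11 of 12 and il17rd in 6 of 11. The median over the genes was 2.42 without dim probe sets, which drops il17rd and fgfr1a, and between 1.23 (without SRBCT 2) and 2.46 (without SRBCT 3) with single arrays left out. The count of the 12 probe sets past the threshold, recounted as an addition made after seeing the data, was 3 without dim probe sets, where fewer are tested, and 0 to 6 with single arrays left out (6 without SRBCT 3). For pathway genes the count of falls was 0 to 2 with single arrays left out (2 without SRBCT 3), and that of rises 0 to 0.

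Over all probe sets 14 were higher and 126 lower in SRBCT. The higher count was 9 with cyclic loess, 31 without dim probe sets and 4 with the replicate block. Without moderation it was 0 and the lower count 0, although 2351 probe sets had an unadjusted p under 0.05 in the moderated fit. With single arrays left out the counts were 2 to 569 and 23 to 571, highest without SRBCT 3. The cause of these shifts was not tested. Arrays with the same number come from different fish, and their deviations correlated at 0.063, 0.070 and -0.046, so the numbers were not taken as pairs. Dim genes (il17rd, fgfr1a and the ligands) are limited by signal near background.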

Other observations

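The Ras gene hrasb stood out on 1 tumour and was singled out after its values were seen. Its brighter probe set was at 7.80, 7.23 and 6.04 in SRBCT, against 6.65, 5.66 and 11.43 in MPNST, and the other probe set was at 6.15, 5.93 and 4.66 in SRBCT, against 5.33, 4.34 and 10.32 in MPNST. Both probe sets were thus far higher on MPNST 3 than on the other 5 arrays. On MPNST 3 the genes spry2 (6.23), spry4 (7.93), fgfr1a (4.37), fgfr3 (5.14) and fgfr4 (5.53) were at the highest of the MPNST values. Like all MPNST values of these genes, they lay below every SRBCT value of the same probe set. For spry2 this holds for its brightest probe set, and the others overlapped between the groups. etv4 (8.21), etv5b (7.08), il17rd (3.59) and dusp6 (10.29) were not the highest of MPNST there. Of the ERK-induced genes, egr1 (6.56), egr2b (5.34), ier2a (9.32), ier5l (8.21), ccnd1 (8.35), mcl1a (10.79) and mcl1b (9.13) were also highest of MPNST there. The ERK-induced gene egr2a was not. The share of all probe sets that were highest of MPNST on that array was not counted, so nothing is read from these genes. A link of these values to hrasb was not tested.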
